A study of Mus musculus with 13 samples.

Results

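Heat shock chaperones are proteins that fold, refold and deliver other proteins, and each cell compartment has a set of its own. The genes described here are 10 chaperones of 3 compartments, taken by name: Hspd1, Hspe1 and Hspa9 of the mitochondrion, Hsp90aa1, Hsp90ab1, Hspa8, Hsph1 and Dnaja1 of the cytosol, and Hspa5 and Hsp90b1 of the endoplasmic reticulum (ER). Of these 10, 9 were measured among the 19938 genes tested; Hsp90ab1 is not named by the array annotation used and was not analysed here. Each gene was read from the probe set annotated to it alone, and where it had several, from the one whose mean level over the 13 arrays was highest.

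The study measured RNA of bone marrow from the femurs of 6-week-old male C57BL/6 mice on standard chow, with 13 Affymetrix Mouse Gene 1.0 ST arrays, each read in 1 colour. Mice that were bled lost 500 µL of blood by puncture behind the eye, and marrow was taken 4 h (1 array), 9 h (3 arrays), 12 h (2 arrays), 15 h (2 arrays) or 48 h (2 arrays) afterwards. The 3 control arrays are of baseline marrow, and neither a sham puncture nor the hour of the day is described for them. No genotype other than the strain is given, and nothing states that replicates are separate animals, so p-values here reflect how far these samples spread, and that spread may be technical.

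A folding protein meets its chaperones in order. In the cytosol, J-domain proteins such as Dnaja1 hand clients to the Hsp70 protein Hspa8, Hsph1 makes Hsp70 release its nucleotide so that the cycle can go on, and Hsp90 proteins finish and activate many kinases and receptors. In mitochondria, Hspa9 pulls incoming chains through the import channel and also serves the assembly of iron-sulphur clusters, while Hspd1 forms a barrel that Hspe1 closes like a lid. In the ER, Hspa5 and Hsp90b1 fold secreted and membrane proteins, and both genes are classic targets of the unfolded protein response. Dividing erythroid precursors, which expand after blood loss, make large amounts of protein, haem and iron-sulphur enzymes.

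The genes of the barrel and the lid, Hspd1 and Hspe1, lie head to head on chromosome 1, and this shared stretch is shown because the RNAs of both rose in the results that follow. RefSeq windows upstream of the start (GRCm38.p6) were used for 6 of the 10 genes (10 windows). No window of Hspa9, Hsp90aa1, Hsp90ab1 or Hspa8 was used. The promoters of these genes were therefore not examined here. The search also left out a chromosome that holds none of the windows used, which need not account for every missing window. Both strands of the 250 bases before each start were searched for the heat shock element units GAANNTTC and TTCNNGAA, bound by heat shock factors. They were also searched for the ER stress response element (CCAAT, 9 bases of any kind, then CCACG), which serves the unfolded protein response. The first sequence is the 215 bases between the 2 starts (chr1:55087933-55088147, plus strand, with Hspd1 transcribed to the left and Hspe1 to the right). The others are the 250 bases before the start of Hsph1 (chr5:149636316-149636565, minus strand), of Hspa5 (chr2:34771840-34772089, plus strand) and of Hsp90b1 (chr10:86705445-86705694, minus strand), each read 5′ to 3′ on its gene's strand. Capitals mark the matches to the heat shock element units in Hspd1-Hspe1 and Hsph1, and to the ER stress response element in Hspa5 and Hsp90b1.
Hspd1-Hspe1: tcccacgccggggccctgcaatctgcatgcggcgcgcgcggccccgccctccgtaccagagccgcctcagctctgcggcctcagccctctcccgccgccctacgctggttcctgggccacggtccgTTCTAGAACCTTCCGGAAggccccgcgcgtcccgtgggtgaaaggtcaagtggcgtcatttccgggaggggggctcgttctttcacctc
Hsph1: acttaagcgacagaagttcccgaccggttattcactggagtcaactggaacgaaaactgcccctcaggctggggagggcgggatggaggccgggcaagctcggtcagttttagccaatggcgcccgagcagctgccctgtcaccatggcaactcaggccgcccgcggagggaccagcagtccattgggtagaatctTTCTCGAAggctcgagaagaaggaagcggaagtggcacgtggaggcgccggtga
Hspa5: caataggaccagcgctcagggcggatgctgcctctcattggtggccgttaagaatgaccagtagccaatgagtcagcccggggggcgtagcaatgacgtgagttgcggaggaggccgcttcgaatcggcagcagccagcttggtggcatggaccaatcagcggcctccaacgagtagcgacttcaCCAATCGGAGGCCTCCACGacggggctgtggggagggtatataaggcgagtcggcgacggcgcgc
Hsp90b1: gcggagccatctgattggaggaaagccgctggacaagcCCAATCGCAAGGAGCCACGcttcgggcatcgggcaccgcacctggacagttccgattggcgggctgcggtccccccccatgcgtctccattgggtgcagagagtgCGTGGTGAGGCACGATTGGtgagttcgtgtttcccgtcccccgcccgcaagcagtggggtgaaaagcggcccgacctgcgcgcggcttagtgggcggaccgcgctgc

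The stretch between Hspd1 and Hspe1 held 3 overlapping matches, TTCTAGAA, GAACCTTC and TTCCGGAA, which together make an unbroken row of 4 units, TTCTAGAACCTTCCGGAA, 89 to 72 bases before the start of Hspe1 and, read on the other strand, 144 to 127 bases before that of Hspd1. A row of that form (TTCNNGAA, 2 bases of any kind, then TTCNNGAA again), searched for after the stretch had been read, was in 4 of 32851 windows of the same length (0.0122%), and 2 of those 4 are the windows of Hspd1 and Hspe1 themselves. The single units are common, with GAANNTTC in 6.69% and TTCNNGAA in 7.17% of windows. Hsph1 held 1 match, TTCTCGAA, 54 to 47 bases before its start, and 1 window of Dnaja1 held GAAAATTC, 124 to 117 bases before the start. The ER stress response element was in 0.113% of windows. It was found in Hspa5 as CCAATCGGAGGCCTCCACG, 65 to 47 bases before the start, and in Hsp90b1 at 2 places, 212 to 194 bases before the start and, on the other strand, 107 to 89 bases before it. The Hspd1 positions count from the start that lies head to head with Hspe1. The other Hspd1 window (chr1:55088244-55088493, minus strand) held no match to either element. The matches listed describe letters and do not show that a factor binds there.

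The numbers in the sample titles fall in 2 runs, of 10 arrays (controls 1 and 2, 9 h replicate 3 and all arrays of 4, 12, 15 and 48 h) and of 3 arrays (control 3 and 9 h replicates 1 and 2), called here the larger and the smaller run. Median log2 levels were 7.01 and 7.80 in the larger and the smaller run, and 62.3% of probe sets had a value repeated among the 3 arrays of the smaller run; none of the 9 chaperones did. Levels are therefore set against controls of the same run, and changes come from 1 limma fit over all 19938 genes and 13 arrays with a term for the run, where "rose" and "fell" mean a Benjamini-Hochberg adjusted p under 0.05. Mpo and Elane, which mark myeloid precursors of marrow, were above the 99th percentile on every array. Markers of small intestine stood out on the 4 h array, where 14 of 18 rose, beside 1.74% of all genes. Markers of liver did so on the 48 h arrays, where 9 of 17 rose, beside 0.326% of all genes. In RNA from whole marrow, a smaller number of cells of a type and less RNA per cell cannot be told apart.

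Across 9, 12 and 15 h all 3 mitochondrial chaperones rose, by 1.58-fold for Hspe1, 1.41-fold for Hspd1 and 1.41-fold for Hspa9. In the cytosol Hsp90aa1, the stress-inducible Hsp90, rose 1.29-fold. With these, 4 of the 9 chaperones rose and none fell, against 0.652% of all genes tested that rose (130 of 19938) and 0.135% that fell. On every array of 9, 12 and 15 h each of the 9 stood above every control of its run, which held for 3.32% of all genes. The median log2 change was 0.50 for the mitochondrial, 0.27 for the cytosolic and 0.21 for the ER chaperones, and -0.0022 over all genes. These 3 medians rest on 3, 4 and 2 genes, and the difference between compartments has no test here.

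**Figure D1:**
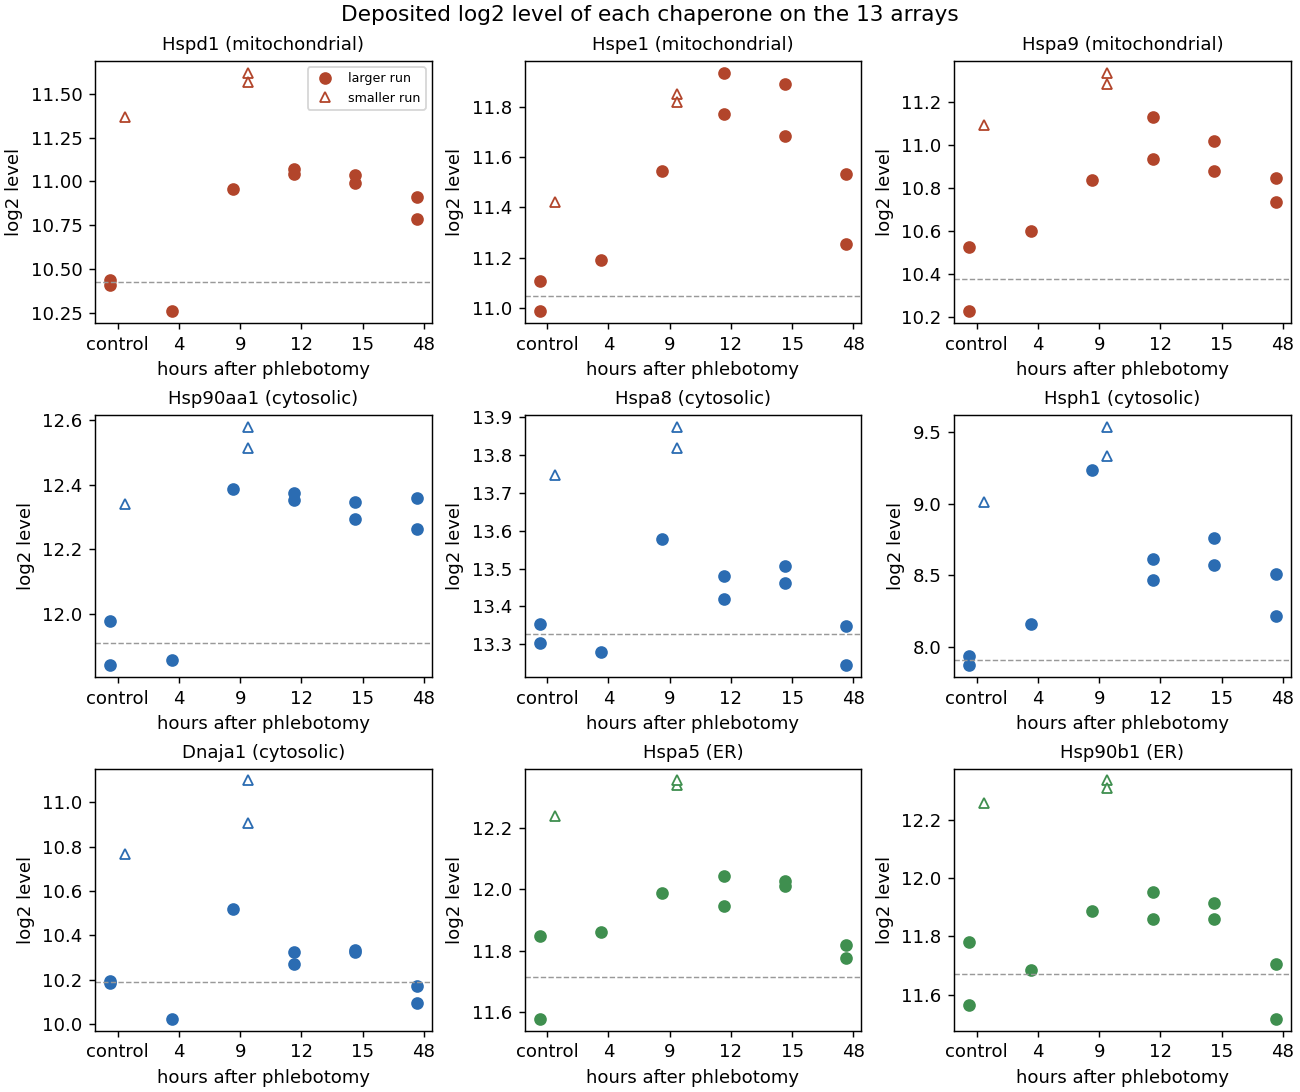
Deposited log2 level (y axis, a scale of its own in each panel) of each of the 9 chaperones on the 13 arrays, by hours after phlebotomy (x axis, spaced evenly); filled circles are the larger run, open triangles the smaller run, and the dashed line is the mean of the larger run's controls. For Hspd1 the 9, 12 and 15 h arrays of the larger run lie between 10.95 and 11.07 and its controls at 10.41 and 10.43.

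Hspd1, the subunit of the folding barrel, had log2 levels of 10.43 and 10.41 in the controls of the larger run, 10.26 at 4 h, 10.95 at 9 h, 11.04 and 11.07 at 12 h, 11.04 and 10.99 at 15 h, and 10.78 and 10.91 at 48 h. In the smaller run it was at 11.37 in the control and at 11.62 and 11.57 at 9 h. Every array from 9 h on was above its controls, and the 4 h array was below them. The log2 change for the mean of 9, 12 and 15 h was 0.50 ± 0.06 (SE; adjusted p = 0.00683). Taken by time, Hspd1 rose at 12 h by 0.58 ± 0.09 (adjusted p = 0.0454) and at 15 h by 0.54 ± 0.09 (adjusted p = 0.0387).

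Hspe1, the lid of the barrel, was at 11.11 and 10.99 in the larger run's controls, 11.19 at 4 h, 11.55 at 9 h, 11.94 and 11.77 at 12 h, 11.89 and 11.69 at 15 h, and 11.25 and 11.53 at 48 h. The smaller run gave 11.42 in the control and 11.85 and 11.82 at 9 h. No array of a bled mouse overlapped the controls of its run, and the 12 and 15 h arrays were the highest of the larger run. Its log2 change for the mean of 9, 12 and 15 h, 0.66 ± 0.08 (adjusted p = 0.003855), was the largest of the 9 and nearly equal to that of Hsph1. Hspe1 rose by 0.79 ± 0.11 at 12 h (adjusted p = 0.0272) and by 0.73 ± 0.11 at 15 h (adjusted p = 0.0227), and at these times it and Hspd1 were the chaperones past the threshold. That is 2 of 9, against 0.0853% of genes that rose at 12 h (17) and 0.211% at 15 h (42); 0.0201% and 0.0451% fell.

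Hspa9, the Hsp70 of the import motor, had control levels of 10.53 and 10.23 in the larger run, a gap wider than that of the other mitochondrial chaperones. Bled marrow gave 10.60 at 4 h, 10.84 at 9 h, 11.13 and 10.94 at 12 h, 11.02 and 10.88 at 15 h, and 10.74 and 10.85 at 48 h; the smaller run gave 11.09 in the control and 11.34 and 11.28 at 9 h. The groups did not overlap. The change for the mean of 9, 12 and 15 h was 0.49 ± 0.08 (adjusted p = 0.0247), and at 12 h alone 0.61 ± 0.11 missed the threshold (adjusted p = 0.0802).

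The calls of all 4 genes for the mean of 9, 12 and 15 h were lost without control replicate 2 (adjusted p = 0.0554 for Hspe1, 0.0710 for Hspd1, 0.177 for Hspa9 and 0.170 for Hsp90aa1), when the genes that passed fell from 157 to 31. The call of Hspa9 was also lost without 9 h replicate 1, 12 h replicate 1 or either 15 h array (adjusted p = 0.0550 to 0.0783), and that of Hsp90aa1 without control replicate 1, 9 h replicate 1 or any 12 or 15 h array (0.0569 to 0.0812). In the larger run alone Hspd1 (0.59, adjusted p = 0.0338) and Hspe1 (0.68, adjusted p = 0.0489) passed, and Hspa9 (0.56, adjusted p = 0.0805) and Hsp90aa1 (0.45, adjusted p = 0.0635) did not.
The calls at 12 and 15 h changed when single arrays were left out. Hspd1 did not pass at 12 h without control replicate 2, 9 h replicate 1 or 2, or any 12 or 15 h array (adjusted p = 0.0735 to 0.342), nor at 15 h without any of the same arrays (0.0712 to 0.221). Hspe1 did not pass at 12 h without control replicate 2 or 3 or any 9, 12 or 15 h array (0.0569 to 0.320), nor at 15 h without control replicate 2, 9 h replicate 1 or either 15 h array (0.0534 to 0.143).

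**Figure D2:**
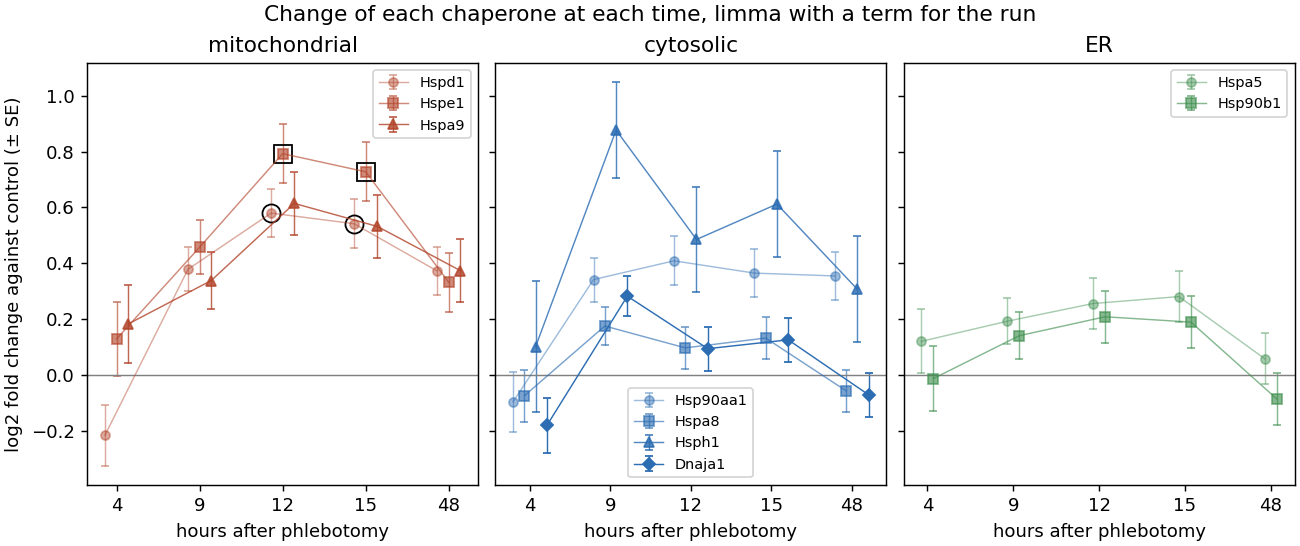
Log2 change against control (y axis) of each chaperone at each time (x axis, hours after phlebotomy, spaced evenly), from limma with a term for the run; bars are the SE, the points of a time are shifted sideways to keep them apart, and a black outline marks an adjusted p under 0.05. The outlined points are Hspd1 and Hspe1 at 12 and 15 h, Hsph1 has its highest point at 9 h (0.88), and the ER chaperones stay between -0.09 and 0.28.

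Among cytosolic chaperones Hsp90aa1 had levels of 11.84 and 11.98 in the larger run's controls, 11.86 at 4 h, 12.39 at 9 h, 12.35 and 12.38 at 12 h, 12.35 and 12.30 at 15 h, and 12.26 and 12.36 at 48 h. In the smaller run the control was at 12.34 and the 9 h arrays at 12.58 and 12.51. From 9 h on the arrays lay clear of the controls and close to one another. The change was 0.37 ± 0.06 for the mean of 9, 12 and 15 h (adjusted p = 0.02795). At 48 h it was 0.35 ± 0.09 (adjusted p = 0.131).

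Hsph1, the exchange factor of Hsp70, varied most. Its levels were 7.87 and 7.94 in the larger run's controls, 8.16 at 4 h, 9.23 at 9 h, 8.47 and 8.61 at 12 h, 8.76 and 8.57 at 15 h, and 8.21 and 8.51 at 48 h, beside 9.01 in the control and 9.54 and 9.34 at 9 h in the smaller run. The 9 h array of the larger run was far above the rest of that run. Its change for the mean of 9, 12 and 15 h, 0.66 ± 0.14, was as large as that of Hspe1 with a wider error and did not pass (adjusted p = 0.0657). It passed in the larger run alone (0.91, adjusted p = 0.0160), without control replicate 3 (0.91, adjusted p = 0.0113), without 9 h replicate 2 (0.72, adjusted p = 0.0425) and without 9 h replicate 3 (0.61, adjusted p = 0.0208).

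Hspa8, the constitutive Hsp70, had controls at 13.35 and 13.30, and reached 13.58 at 9 h, 13.42 and 13.48 at 12 h, and 13.51 and 13.46 at 15 h, with 13.28 at 4 h and 13.24 and 13.35 at 48 h. In the smaller run it went from 13.75 to 13.88 and 13.82. Dnaja1, a J-domain partner of Hspa8, had controls at 10.18 and 10.19, with 10.02 at 4 h, 10.52 at 9 h, 10.32 and 10.27 at 12 h, 10.34 and 10.32 at 15 h, and 10.09 and 10.17 at 48 h, and in the smaller run 10.77 in the control and 11.10 and 10.91 at 9 h. On the probe sets used, both genes were above their controls at 9, 12 and 15 h and not at 4 or 48 h. Their changes for the mean of 9, 12 and 15 h were 0.13 ± 0.05 for Hspa8 (adjusted p = 0.365) and 0.17 ± 0.06 for Dnaja1 (adjusted p = 0.274), and neither passed.

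In the ER, Hspa5, the chief Hsp70 of that compartment, was at 11.85 and 11.58 in the larger run's controls, 11.86 at 4 h, 11.99 at 9 h, 11.95 and 12.05 at 12 h, 12.03 and 12.01 at 15 h, and 11.78 and 11.82 at 48 h. The smaller run gave 12.24 in the control and 12.34 and 12.36 at 9 h. Hsp90b1, the Hsp90 of the ER, was at 11.78 and 11.56 in the controls, 11.68 at 4 h, 11.89 at 9 h, 11.95 and 11.86 at 12 h, 11.91 and 11.86 at 15 h, and 11.52 and 11.71 at 48 h, with 12.26 against 12.34 and 12.31 in the smaller run. The controls of both genes were 0.27 and 0.21 apart, as wide as the changes themselves. Hspa5 changed by 0.24 ± 0.07 (adjusted p = 0.164) and Hsp90b1 by 0.18 ± 0.07 (adjusted p = 0.328) for the mean of 9, 12 and 15 h.

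**Figure D3:**
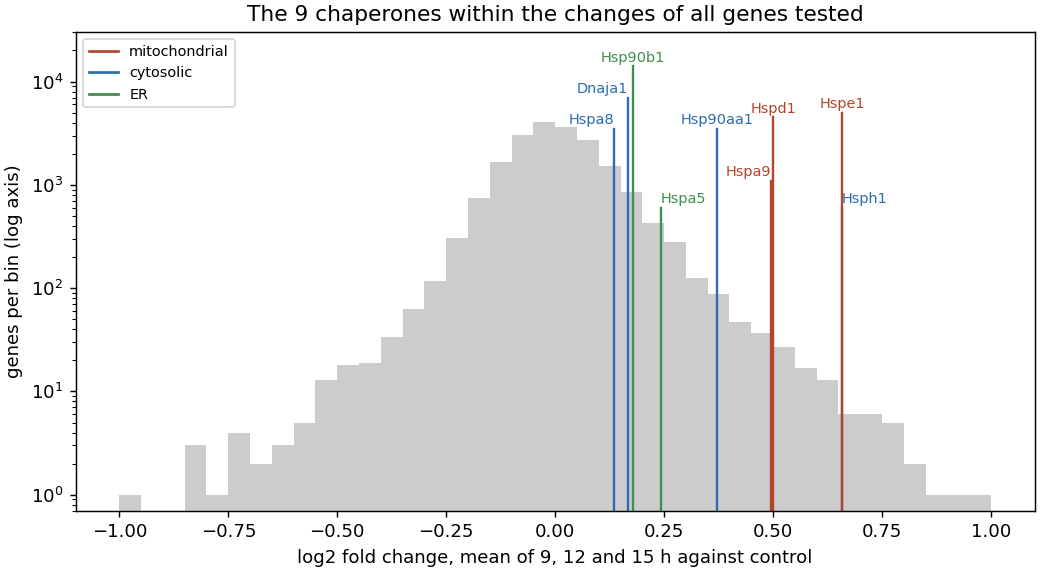
Histogram of the log2 change of all genes tested (x axis, mean of 9, 12 and 15 h against control; y axis, genes per bin on a log axis), with a line for each of the 9 chaperones, whose height carries no value; 10 genes lie beyond the plotted range of -1 to 1. All 9 lines stand to the right of 0, from 0.13 for Hspa8 to 0.66 for Hspe1.

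At the first time, 4 h, none of the 9 chaperones passed, while 1.74% of all genes rose and 0.251% fell, and none was past an unadjusted p of 0.05, where 8.02% of all genes were higher and 7.21% lower. Changes ran from -0.22 for Hspd1 to 0.18 for Hspa9 on a single array, which the fit takes to vary as the other groups do. That array also carried the transcripts of small intestine, with a summed log2 level of 14.40 for the 18 markers against 10.54 and 10.67 in the controls and 9.87 to 10.24 on the other bled arrays of the larger run. Skeletal muscle markers were at 14.04 against 12.06 and 12.17 (0 of 14 passed). Marrow markers lower at an unadjusted p under 0.05, beside 7.21% of all genes, were counted too. These were 4 of 9 erythroid (median -0.37), 3 of 9 B-lineage, 2 of 5 megakaryocyte, 0 of 10 myeloid and 0 of 9 osteoblast, stromal and endothelial markers. Of the B-lineage list Ebf1 fell in limma (adjusted p = 0.0277), beside 0.251% of all genes. The part of these tissues and lineages in the chaperone values at 4 h was not tested.
At 9 h none of the 9 passed, against 0.0502% of all genes that rose (10 of 19938) and 0.0451% that fell, by limma with adjusted p. At an unadjusted p under 0.05, 8 of the 9 were higher, as were 3.64% of all genes. The changes ran from 0.14 ± 0.08 for Hsp90b1 to 0.88 ± 0.17 for Hsph1 (adjusted p = 0.156), with 0.46 ± 0.10 for Hspe1, 0.38 ± 0.08 for Hspd1 and 0.28 ± 0.07 for Dnaja1.

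Both runs hold 9 h arrays, so this time was seen in each of them. Hsph1 was 1.33 above its controls in the larger run and 0.53 and 0.32 above its control in the smaller run. Hspe1 was 0.50 above in the larger run and 0.43 and 0.40 above in the smaller, and Hspd1 0.53 against 0.25 and 0.20. Each of the 9 was higher on every 9 h array than on every control of its run, as were 1254 of all 19938 genes. The size of the change was smaller in the smaller run for all 9 on the mean of its 2 arrays, by 0.91 ± 0.21 for Hsph1 (adjusted p = 0.776) and by less for the rest. The test of that difference between runs passed for none of the 9 and none of the 19938 genes. At an unadjusted p under 0.05 were 1215 genes, Hsph1 and Hspd1 among them. In the smaller run the summed level of 17 liver markers was 12.44 on 9 h replicate 1, 12.13 on replicate 2 and 12.30 in the control.

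**Figure D4:**
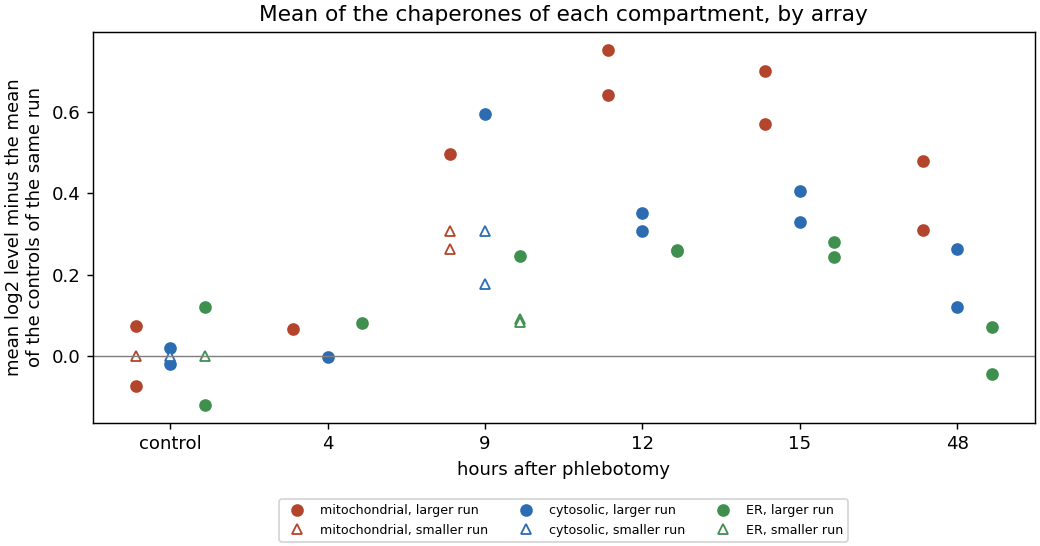
Mean over the chaperones of a compartment of the log2 level minus the mean of the controls of the same run (y axis), 1 point per array, by hours after phlebotomy (x axis, spaced evenly); filled circles are the larger run and open triangles the smaller. The highest mitochondrial point is at 12 h (0.75, beside 0.64), with 0.70 and 0.57 at 15 h. The cytosolic point of the larger run is highest at 9 h (0.60), and the ER points stay at or below 0.28.

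Averaged over the genes of a compartment, the mitochondrial chaperones stood 0.50 above the controls on the 9 h array of the larger run, 0.75 and 0.64 at 12 h, 0.70 and 0.57 at 15 h and 0.31 and 0.48 at 48 h. The cytosolic ones stood 0.60 above at 9 h, 0.31 and 0.35 at 12 h, 0.40 and 0.33 at 15 h and 0.12 and 0.26 at 48 h. At 12, 15 and 48 h the mitochondrial mean was the higher on each array. The cytosolic mean was the higher on the 9 h array of the larger run, where Hsph1 stood 1.33 above its controls and Hsp90aa1 (0.48), Dnaja1 (0.33) and Hspa8 (0.25) less. It was not the higher in the smaller run, where the mitochondrial means were 0.307 and 0.262 and the cytosolic 0.307 and 0.177. The ER chaperones stood 0.25 above at 9 h, 0.26 on both arrays at 12 h, 0.28 and 0.24 at 15 h, and -0.05 and 0.07 at 48 h.
The mean of 12 and 15 h was set against 9 h for each gene, a comparison added after the levels had been seen. Hspe1 was 0.30 ± 0.11, Hspa9 0.24 ± 0.11 and Hspd1 0.18 ± 0.09 higher, and Hsph1 was 0.33 ± 0.19 and Dnaja1 0.17 ± 0.08 lower. None of the 9, and none of all genes tested, passed in limma after adjustment (at an unadjusted p under 0.05, 1216 genes or 6.1% were higher and 1175 or 5.89% lower), and without 9 h replicate 3 Hsph1 was 0.28 higher instead. In the same comparison 7 of 9 osteoblast, stromal and endothelial markers were higher at an unadjusted p under 0.05 (median 0.49), and all 14 muscle markers were lower (median -0.45, none at an unadjusted p under 0.05). None of either list passed. The summed log2 level of the stromal list was 13.53 on 9 h replicate 3, against 14.95 and 14.32 in its controls and 14.42 to 14.80 at 12 and 15 h. The part of these cells in the chaperone values was not tested.

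At 48 h the mitochondrial chaperones, Hsp90aa1 and Hsph1 were above their controls on both arrays, as were 4828 of all 19938 genes. Log2 changes were 0.37 ± 0.09 for Hspd1 (adjusted p = 0.117), 0.37 ± 0.11 for Hspa9 (adjusted p = 0.188) and 0.33 ± 0.11 for Hspe1 (adjusted p = 0.199). Hsph1 was at 0.31 ± 0.19 (adjusted p = 0.504). Hspa5 (0.06 ± 0.09), Hspa8 (-0.06 ± 0.07), Dnaja1 (-0.07 ± 0.08) and Hsp90b1 (-0.09 ± 0.09) lay near the controls. None of the 9 passed, against 0.326% of all genes that rose and 0.0502% that fell, and 4 of the 9 were higher at an unadjusted p under 0.05, as were 9.31% of all genes.
Set against the mean of 9, 12 and 15 h, all 9 were lower at 48 h and none passed, where 0.0953% of all genes fell. At an unadjusted p under 0.05, 5 of the 9 were lower, with 6.16% of all genes: Hspe1 (-0.33 ± 0.09), Hsp90b1 (-0.27 ± 0.08), Dnaja1 (-0.24 ± 0.07), Hspa8 (-0.19 ± 0.06) and Hspa5 (-0.19 ± 0.08). The largest drop, that of Hsph1 (-0.35 ± 0.16), had a wider error and was not among them, and Hsp90aa1 was at -0.02 ± 0.08. The 48 h arrays also carried liver transcripts, with a summed log2 level of 12.80 and 12.56 for 17 markers against 11.40 and 11.49 in the controls and 11.29 to 11.62 on the other bled arrays of the larger run. Markers of marrow lineages were counted in the same comparison at an unadjusted p under 0.05, where 1920 of 19938 genes were higher and 6.16% lower. Of 9 erythroid markers 6 were higher (median 0.33). Lower were 4 of 10 myeloid (median -0.14), 2 of 9 B-lineage (median -0.15) and 2 of 9 stromal markers (median -0.32). None of these passed. Of 5 megakaryocyte markers 1 rose, Gp9, beside 0.883% of all genes. Summed log2 levels at 48 h were 15.42 and 15.31 for the erythroid list, against 15.04 to 15.20 at 9, 12 and 15 h in the larger run. For the myeloid list they were 16.02 and 16.09, against 16.11 to 16.25. The part of liver and of these lineages in the chaperone values was not tested.

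Partner genes of these chaperones were followed in lists. Of 16 other mitochondrial chaperones, co-chaperones and quality control proteases none passed for the mean of 9, 12 and 15 h, with 6 of 16 higher at an unadjusted p under 0.05 (7.39% of all genes) and a median change of 0.13. The highest were Clpp, the protease chamber of the matrix, at 0.27 ± 0.06 (adjusted p = 0.0780), and Grpel1, the exchange factor of Hspa9, at 0.27 ± 0.06 (adjusted p = 0.0848). Of 15 other cytosolic heat shock proteins (Hspa1b was not measured) none passed and the median was 0.02. The strongly heat-inducible Hspa1a was at -0.07 ± 0.09 and Dnajb1 at -0.11 ± 0.07, and Hspa4, a relative of Hsph1, had the smallest p of that list (0.18 ± 0.05, adjusted p = 0.173).

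Of 19 co-chaperones of cytosolic Hsp70 and Hsp90 and heat shock factor genes (Hsf1 was not measured), 1 rose, beside 0.652% of all genes. That was Ppid, a cyclophilin that docks on Hsp90, at 0.37 ± 0.07 (adjusted p = 0.0397). The call was lost in the larger run alone (adjusted p = 0.0572), without the 4 h and 48 h arrays (0.0591), and without control replicate 1 or 2 or any of 9 h replicates 1 and 2 and the 12, 15 and 48 h arrays (0.0591 to 0.228). In the same list Ptges3 (p23, an Hsp90 co-chaperone; 0.27 ± 0.06, adjusted p = 0.0836) and Ahsa1 (an activator of the Hsp90 ATPase; 0.28 ± 0.07, adjusted p = 0.130) did not pass, and the list's median was 0.10. All 6 subunits of prefoldin, which hands actin and tubulin to their chaperonin, lay above 0 with a median of 0.20, and none passed (Pfdn6, 0.22 ± 0.07, adjusted p = 0.235).

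Of 22 other ER chaperones and oxidoreductases none passed for the mean of 9, 12 and 15 h (median 0.11). Pdia6, a disulphide isomerase, was at 0.28 ± 0.08 (adjusted p = 0.206). Of 14 sensors, factors and degradation genes of the unfolded protein response none passed (median 0.0057), and Xbp1, its spliced transcription factor, was at 0.26 ± 0.07 (adjusted p = 0.131). At 48 h against the mean of 9, 12 and 15 h, 14 of the 22 other ER genes were lower at an unadjusted p under 0.05, beside 6.16% of all genes, with a median of -0.20 where that of all genes was 0.01. None of them passed. The smallest p-values were those of Creld2 (-0.40 ± 0.08, adjusted p = 0.0526), Pdia4 (-0.38 ± 0.08, adjusted p = 0.0553) and Sdf2l1 (-0.49 ± 0.11, adjusted p = 0.0602), which are ER folding factors. Plasma cells are rich in such transcripts, and of 10 plasma cell markers (2 of them, Fkbp11 and Derl3, also in the ER lists) none passed, while 3 of 10 were lower at an unadjusted p under 0.05 and the median was -0.12. Their summed log2 levels were 11.21 and 11.42 at 48 h against 11.30 to 11.63 at 9, 12 and 15 h in the larger run. The part of plasma cells in these values was not tested.

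**Figure D5:**
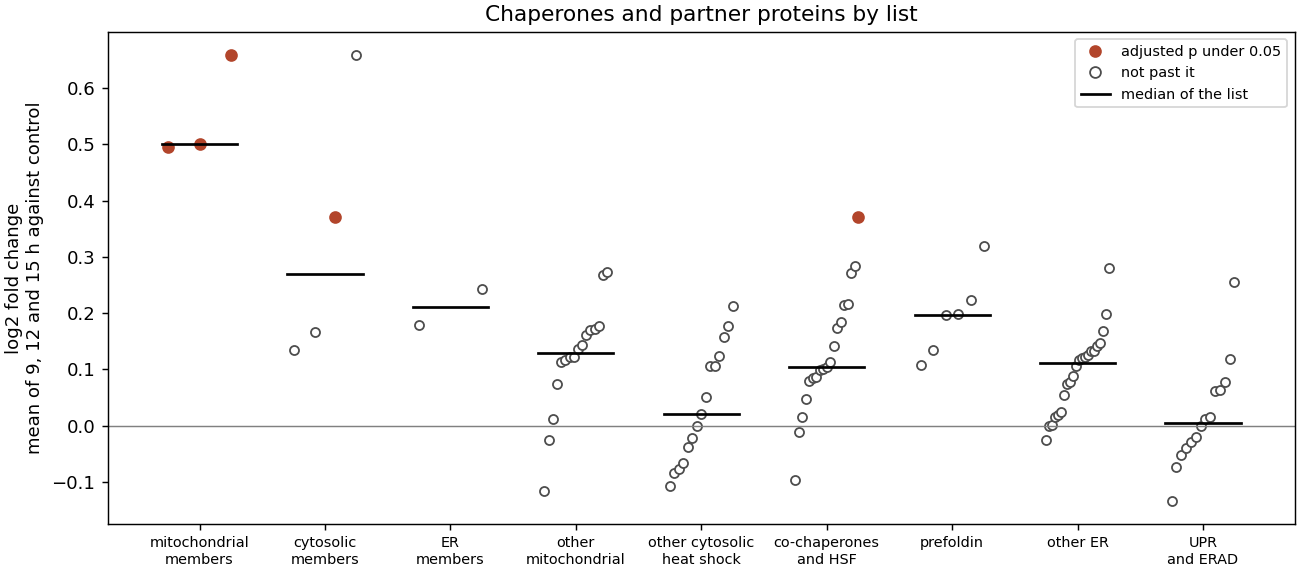
Log2 change from control to the mean of 9, 12 and 15 h (y axis) of each measured gene of the 9 chaperones and of 6 lists of partner proteins (x axis); filled points passed an adjusted p of 0.05, open points did not, and a bar marks each list's median (UPR, unfolded protein response; ERAD, ER-associated degradation). The filled points are the 3 mitochondrial chaperones, Hsp90aa1 and, in the co-chaperone list, Ppid.

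Of all genes, the 5 whose profile over the 10 arrays of the larger run lay closest to the mean of Hspd1 and Hspe1, by the root mean square (RMS) difference of log2 levels set against the controls, were Rfesd (0.094), Tars (0.095), Hspa9 (0.111), Rexo2 (0.114) and Nop58 (0.115). Hspa9 thus ranked 3 among 19936 genes, and Hsp90aa1 came 46th at 0.177. Hsph1 (437th), Hspa5 (623rd), Hsp90b1 (1631st), Hspa8 (2819th) and Dnaja1 (3316th) were less alike. Rfesd encodes a protein with a Rieske-type iron-sulphur domain, Tars the threonyl-tRNA synthetase, Rexo2 an RNA exonuclease and Nop58 a core protein of nucleolar ribonucleoproteins. The likeness is a description of these 10 arrays.

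Several of these genes have near-identical copies elsewhere in the genome, and probes that they share could not be separated here. Where other probe sets of a gene were on the array, they gave like values for the mean of 9, 12 and 15 h: 0.49 for the other Hspd1 probe set, 0.65 for that of Hspe1, 0.35 and 0.38 for those of Hsp90aa1, 0.11 and 0.14 for those of Hspa8 and 0.21 for that of Dnaja1. Those of Hspd1, Hspe1 and Hsp90aa1 passed in a fit over all probe sets (adjusted p = 0.00142 to 0.0353). At single times the other Hspe1 probe set passed at 12 h (adjusted p = 0.0113) and 15 h (0.0108), and the other Hspd1 probe set did not (0.0781 at 12 h and 0.0981 at 15 h). The other Dnaja1 probe set had a different time course, with changes of 0.19 at 4 h, 0.04 at 15 h and 0.20 at 48 h. Its change at 48 h against the mean of 9, 12 and 15 h was -0.01, where the probe set used gave -0.24. None of these Dnaja1 changes passed.

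Markers of other cells and of marrow lineages were followed on the same arrays. Over 9, 12 and 15 h, 7 of 18 small intestine markers fell, beside 0.135% of all genes, from summed log2 levels of 10.54 and 10.67 in the larger run's controls to between 9.87 and 10.002, and from 11.22 to 10.72 and 10.75 in the smaller run. Of 9 erythroid markers 1 rose, beside 0.652% of all genes: Tfrc, the transferrin receptor (0.46 ± 0.09, adjusted p = 0.0453), and their summed level was 15.04 to 15.20 on the 9, 12 and 15 h arrays of the larger run against 14.96 and 15.34 in its controls. Of 5 megakaryocyte markers 1 fell, Gp9, a platelet membrane protein (-0.34 ± 0.06, adjusted p = 0.0314), and all 5 lay below 0. Their summed level was 14.16 to 14.45 on those arrays against 14.35 and 14.59 in the controls, and 14.93 and 14.90 against 15.07 in the smaller run. The part of these cells in the rise of the chaperones was not tested. With the 4 h and 48 h arrays left out, the counts of chaperones that passed stayed at 4 for the mean of 9, 12 and 15 h (132 genes passed in all), and at 2 for 12 h and 2 for 15 h. The comparisons with control share the 3 control arrays, so they are not independent of one another.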

How the data were processed

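Total RNA of mouse femoral marrow was hybridised to 13 arrays. The authors deposited log2 levels per probe set, made with RMA per the submitters' processing notes; its version, and which arrays were normalised together, are not given in the sources used here. Of 35557 probe sets, 21789 had 1 gene symbol, 1621 several and 12147 were not listed; 21698 symbols were updated through Entrez identifiers, leaving 19938 genes. Groups come from the time labels. Replicate numbers follow sample order and pair nothing.

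A single model of 6 groups, with the run of title numbers as a fixed term, was fitted with limma 3.58.1 in R 4.3.3 (6 residual and 4.62 prior degrees of freedom), after a check on simulated data. The threshold was an adjusted p (Benjamini-Hochberg) of 0.05, and precision is limited by the few arrays. The genes and lists were chosen with earlier results of these data known. Named from each list were the genes that passed (at most 5 with the smallest p per comparison) or, where none did, the one with the smallest p; Grpel1, Hspa1a, Dnajb1, Ptges3, Ahsa1, Creld2, Pdia4 and Sdf2l1 were picked after their values were seen. Alternatives changed the run term, arrays, normalisation, probe sets, filter and moderation. Promoter windows are from RefSeq (GRCm38.p6). Figures used matplotlib 3.10.9.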

Additional observations from a re-analysis of the deposited data

How the results depend on the processing

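Under every alternative run, the changes of the 9 chaperones from control to the mean of 9, 12 and 15 h stayed above 0, and the count past the threshold there was 4, except for 5 with the run as a random block, 3 in the larger run alone, 1 with array weights, 0 with no term for the run, and 0 to 5 with 1 array left out (0 without control replicate 2). At 12 h, where 2 passed, the count was 0 with no run term, in the larger run alone, with the groups of the comparison alone and with array weights, 1 with arrays centred on the median and with the mean of a gene's probe sets, and 0 to 3 with 1 array left out. At 15 h the same settings gave the same counts, 0 for the first 4, 1 for the next pair, and 0 to 3 with 1 array left out. At 9 h, where none passed, 1 did (Hsph1) with a random block and in the larger run alone, and 0 to 1 with 1 array left out; for the mean of 12 and 15 h against 9 h, 1 did with the groups alone.

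Genes past the threshold over all genes ranged, for the mean of 9, 12 and 15 h, from 31 to 340 with 1 array left out and from 8 to 252 under the other settings, against 157. The cause of these shifts was not tested.

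Signs turned in small changes that had not passed. With no run term these were, at 4 h, Hspa9 (-0.016), Hsph1 (-0.117) and Hspa5 (-0.028); at 12 h, Hspa8 (-0.018) and Dnaja1 (-0.083); at 15 h, Dnaja1 (-0.051); at 48 h, Hspa5 (-0.091); and for the mean of 12 and 15 h against 9 h, Hspd1 (-0.35), Hspa9 (-0.16), Hsp90aa1 (-0.15), Hspa5 (-0.22) and Hsp90b1 (-0.28). That setting leaves the level gap between runs in the 9 h and control means. At 4 h Hsp90b1 turned to 0.012 in the larger run alone and with the groups alone and to 0.024 with quantile normalisation, and Dnaja1 to 0.0026 with the mean of its probe sets. At 48 h, Hspa8 turned to 0.0013 with quantile normalisation and Dnaja1 to 0.064 with the mean of its probe sets. Hsp90aa1 in the mean of 12 and 15 h against 9 h turned to -0.045 in the larger run or with the groups alone and to -0.011 with quantile normalisation. With 1 array left out, the range crossed 0 at 4 h for Hsph1 (-0.030 without control replicate 1 to 0.253 without control replicate 3) and Hsp90b1 (-0.108 without control replicate 2 to 0.045 without control replicate 1); at 48 h for Hspa5 (-0.059 without control replicate 2 to 0.134 without control replicate 1) and Hsp90b1 (-0.181 without control replicate 2 to 0.0083 without 48 h replicate 1); and at 48 h against the mean of 9, 12 and 15 h for Hsp90aa1 (-0.066 without 48 h replicate 2 to 0.043 without 9 h replicate 3). In 12 and 15 h against 9 h it did so for Hsp90aa1 (-0.045 to 0.225), Hspa8 (-0.111 to 0.040) and Hsph1 (-0.631 to 0.276), each time from the fit without control replicate 3 to that without 9 h replicate 3.

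No paired analysis was possible because the labels give no replicate numbers. The 9 h change in the smaller run alone and the fit without the 4 h and 48 h arrays, and the comparison of 12 and 15 h with 9 h were chosen after seeing the data.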
